A study of Homo sapiens with 2 samples.

Results

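Matrix metalloproteinases (MMPs) and their tissue inhibitors (TIMPs) were compared between OECM1 cells that express the microRNA let-7i and OECM1 cells that carry an empty vector. The set holds 10 genes, the 7 proteases MMP1, MMP2, MMP7, MMP9, MMP10, MMP13 and MMP14 and the 3 inhibitors TIMP1, TIMP2 and TIMP3. All probe sets whose platform gene symbol is one of these were taken, 20 of the 54675 probe sets on the array (12 for proteases, 8 for inhibitors), and none of the 20 carried a second symbol. OECM1 is an established cell line from a head and neck cancer. One culture was stably transfected with pmCherry-let7i, which expresses let-7i, and the other with the pmR-mCherry empty vector. Both were grown in the same serum-containing medium and carry mCherry, a red fluorescent protein. Whether each transfected line is 1 clone or a mixed population is not given in the sources used here. Each group had 1 array, so no difference has a replicate check and no p-value was computed. The genes were chosen by their known roles, with the log2 ratios of these 2 arrays already in view, so every value below is a description.

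MMPs are zinc-dependent proteases that are made as inactive proenzymes, either secreted or held in the membrane, and that cleave collagens, laminins and other matrix proteins once the prodomain is removed. TIMPs bind the active site and block it. In squamous carcinoma of the head and neck, MMPs made by the tumour cells and by the surrounding stroma are known for their part in invasion through the basement membrane. let-7i belongs to the let-7 microRNA family, which represses messenger RNAs that carry a match to its seed. Its mature RNA is shown because it is the agent that sets the 2 cultures apart, with the seed (bases 2 to 8) in capitals, from RefSeq, GRCh38.p14, chr12:62603691-62603712, plus strand.
hsa-let-7i-5p: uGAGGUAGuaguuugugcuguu
RefSeq holds 11 mature microRNA names with this seed. The array does not measure mature microRNAs, and no probe set was named for the let-7i gene, so the level of let-7i itself did not check the labels.

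A signal is a MAS5 intensity, the summary of 1 probe set on a linear scale that differs from probe set to probe set. Levels are therefore compared between the arrays and not between genes. The floor is the median signal of each array (88.0 for the empty vector, 79.5 for let-7i), and a signal below it was not counted as measured. A ratio is let-7i over empty vector, centred on the median of the genes measured on both arrays. The SD of 1 probe set, taken from 5807 genes with a second measured probe set, was 0.34 on the log2 scale in the dimmest 1452 of these genes and 0.15 in the brightest 1452, and it covers probe noise only. Of 4 squamous epithelial markers with a probe set of their own, CDH1 and EPCAM were above the floor on both arrays, while the basal keratins KRT5 and KRT14 were below it on both. The summed signal over these 4 was 17738 in control cells and 11798 in let-7i cells, with log2 ratios of -0.42 for CDH1 and -0.71 for EPCAM, and the part of this difference in the MMP and TIMP values was not tested. Of 8 fibroblast markers 2 (COL1A1 and DCN) reached the floor on each array, with a summed signal over the list of 699 in control cells and 946 in let-7i cells. Of 6 leukocyte markers 3 and 2 reached it (summed 435 and 352), PTPRC, CD14 and CD163 being below it on both arrays. CD3E (173 and 90.4) and ITGAM (90.5 and 109) reached it on both arrays, and CSF1R (109 and 71.6) in control cells only. Of 4 endothelial markers 1, PECAM1 (319 and 372), reached it on each array (summed 412 and 465). Whether signals of this size reflect expression of the gene was not tested. Each of these sums includes signals below the floor and weighs bright probe sets most, so it does not measure the share of a cell type.

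The collagenase MMP1 was higher with let-7i and the inhibitor TIMP3 lower, and these had the largest differences among the members measured on both arrays. Of the 10 genes, 8 reached the floor on 1 or both arrays. Of these 8, MMP1 and MMP2 (2 genes) were higher by 2-fold or more and TIMP3 (1 gene) was lower by as much. Of all 12284 genes that reached the floor on 1 or both arrays, 2.43% were past 2-fold (1.06% higher and 1.38% lower). MMP1 had the highest and TIMP3 the lowest log2 ratio of the 11140 genes measured on both arrays. The 1144 genes with a bound were not ranked. Among them ALPP (755 and 7.01) lay lower than TIMP3, with a bound of -3.25 on the log2 scale. MMP10 and MMP13 were below the floor on both arrays. The other 5 members differed by less than 2-fold, TIMP1 being higher and MMP7, MMP9, MMP14 and TIMP2 lower.

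**Figure D1:**
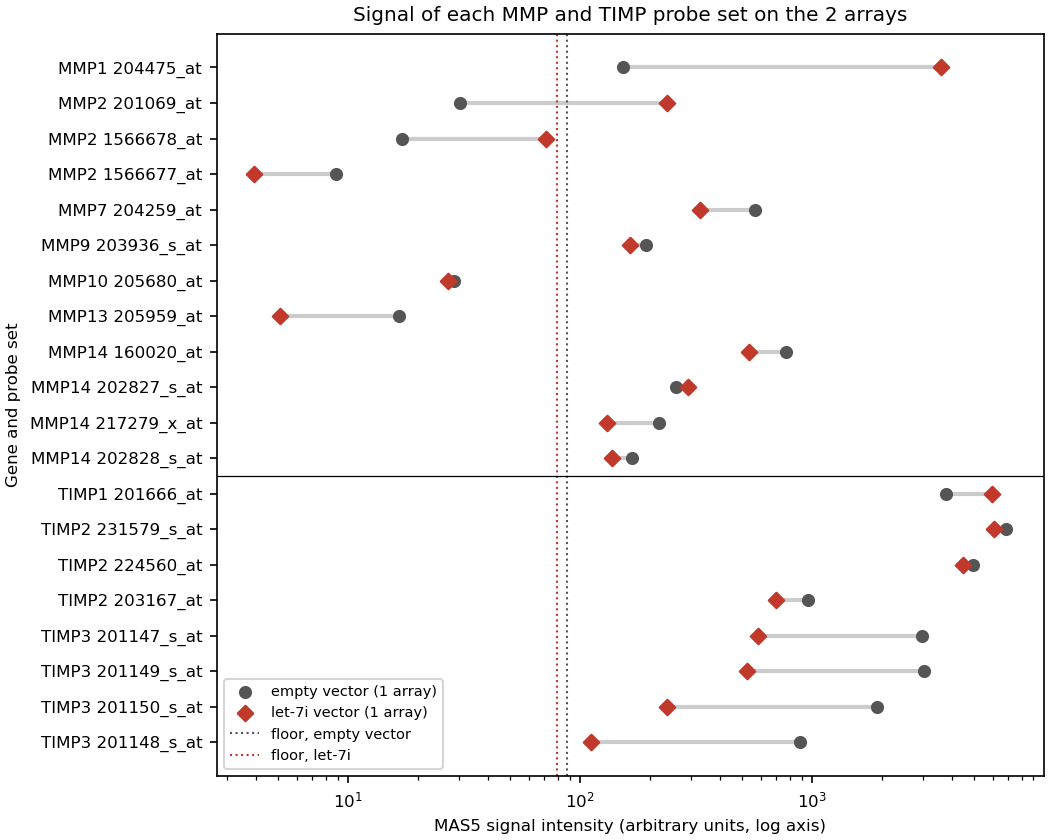
MAS5 signal (x axis, arbitrary units, log axis) of all 20 MMP and TIMP probe sets on the empty vector array (grey circles) and the let-7i array (red diamonds), proteases above the line and inhibitors below it; dotted lines are the floors of 88.0 and 79.5. MMP1 lies to the right with let-7i, the 4 TIMP3 probe sets lie to the left, and the probe sets of MMP10 and MMP13 lie below both floors.

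MMP1, the interstitial collagenase that cuts fibrillar collagens, is read by 1 probe set. Its signal was 153 in control cells and 3610 in let-7i cells, a 23.5-fold higher level with let-7i (log2 ratio of 4.56). That log2 ratio is 17.9 times the SD of 1 probe set at its mean log2 signal over the 2 arrays (0.25). The control signal by itself lies in the dimmest group, where that SD was 0.34. This is a comparison with probe noise and not with variation between cultures. The control signal is dim, and when the floor was raised to the 65th percentile the difference became a lower bound of 15.6-fold. The gene next to it in the order of log2 ratios was CYB5A, a cytochrome b5, which was 10.8-fold higher (121 and 1315). With 1 ratio per gene, this order says nothing of a shared pattern.

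The other collagenase in the set, MMP13, had signals of 16.5 and 5.11, and MMP10, a stromelysin, had signals of 28.6 and 27.1. Neither reached the floor on either array, and no fold is given. With a lower floor, the 25th percentile of each array, MMP10 was measured on both arrays with a log2 ratio of -0.07, while MMP13 stayed below it on both.

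MMP1, MMP7, MMP10 and MMP13 lie in 1 cluster of MMP genes on chromosome 11. In RefSeq its order is MMP7, MMP20, MMP27, MMP8, MMP10, MMP1, MMP3, MMP12 and MMP13, with no other protein-coding gene wholly between its ends. Of these 9 genes MMP1 and MMP7 were the ones that reached the floor, and they lay on opposite sides, with log2 ratios of 4.56 and -0.80. The genes on either side of MMP1 stayed below the floor, MMP10 as given above and MMP3, a stromelysin, with signals of 39.1 and 60.8. MMP12, the macrophage elastase, had signals of 43.6 and 37.0. MMP27 had signals of 60.9 and 39.8, MMP20, the enamelysin of developing teeth, of 1.57 and 2.87, and MMP8, the neutrophil collagenase, of 11.9 and 4.21 in the brighter of its 2 probe sets by mean log2 signal.

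The gelatinases MMP2 and MMP9 cleave denatured collagen and the type IV collagen of basement membranes. The brightest of 3 MMP2 probe sets had a signal of 30.3 in control cells and 236 in let-7i cells. The control value is below the floor, so the let-7i level was higher by at least 2.68-fold. Raising the floor to the 65th percentile left a bound with a log2 ratio of 0.03 and ended that call, and lowering it to the 25th percentile gave a measured log2 ratio of 2.98. The other MMP2 probe sets were below the floor on both arrays, one with signals of 17.0 and 71.1 and one with 8.88 and 3.94. MMP9 had signals of 193 and 163 in its 1 probe set, a log2 ratio of -0.24 against a probe SD of 0.34. MMP2 is also made by fibroblasts, and DCN, one of the fibroblast markers above the floor, had signals of 163 and 322. PDGFRA, PDGFRB, LUM, THY1, COL1A2 and COL3A1 were below the floor on both arrays, and the part of such cells in the MMP values was not tested. In RNA from whole cultures, a difference in the number of cells that express a gene and a difference in its RNA per cell cannot be told apart.

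MMP7, matrilysin, is a small protease made by epithelial cells. It was 1.74-fold lower with let-7i, with signals of 569 and 329 in its 1 probe set. Its log2 ratio of -0.80 is 3.12 times the probe SD at its mean log2 signal over the 2 arrays.

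MMP14 is a membrane-anchored protease that cuts collagen at the cell surface and, with TIMP2 as a bridge, activates proMMP2. Its 4 probe sets did not point one way. The brightest gave 769 in control and 533 in let-7i cells, a 1.45-fold lower level. Lower values also came from the probe set with signals of 218 and 130 (log2 ratio of -0.75) and from the dimmest (167 and 137, -0.29). The remaining probe set was slightly higher (260 and 293, 0.17). These log2 ratios span 0.92, more than in 91.5% of the 639 genes with exactly 4 measured probe sets, whose median span was 0.47. The dimmer 3 lie in the range of signals where the probe SD is 0.34.

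**Figure D2:**
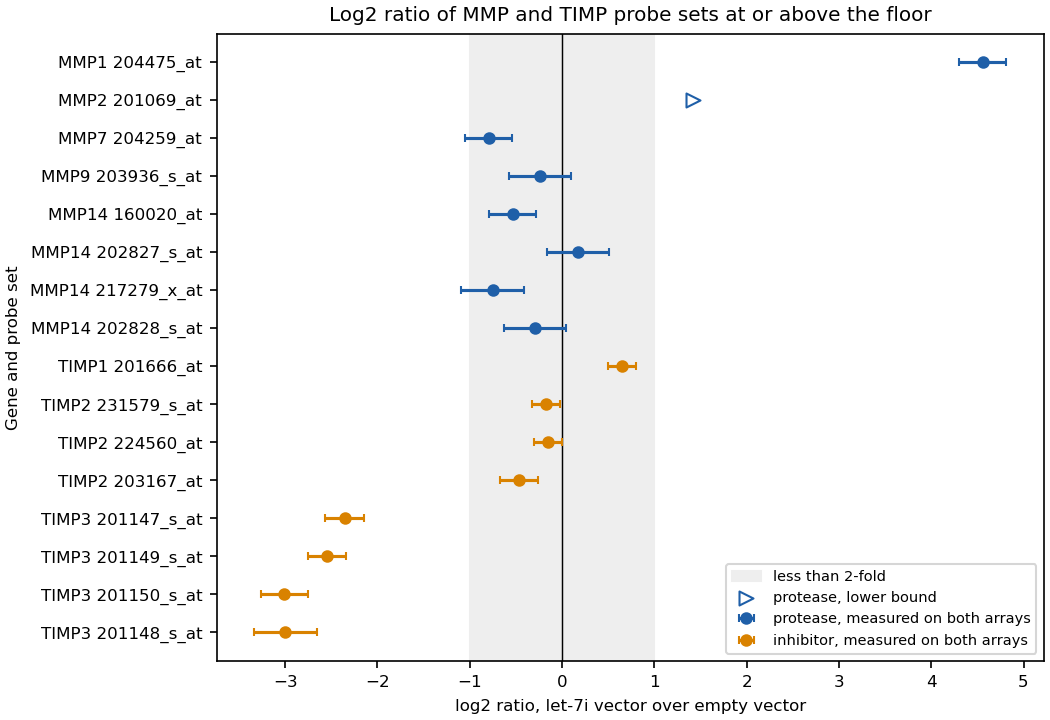
Log2 ratio (x axis, let-7i over empty vector) of the 16 MMP and TIMP probe sets that reached the floor on 1 or both arrays. Bars are the SD of 1 probe set at the mean log2 signal of the 2 arrays, which is probe noise and not variation between cultures. The open triangle is a lower bound and the grey band is less than 2-fold. TIMP3 sits between -3.01 and -2.35 in all 4 probe sets, whereas the 4 MMP14 probe sets lie on both sides of 0.

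The 3 inhibitors did not differ in the same way. TIMP1, a secreted inhibitor that also binds proMMP9, was 1.57-fold higher with let-7i, with signals of 3778 and 5949 in its 1 probe set. Its log2 ratio of 0.65 is below the 2-fold threshold and 4.22 times the SD of a bright probe set (0.15).

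TIMP2, the inhibitor that binds proMMP2, was close to level. Its 3 probe sets had signals of 6862 and 6102, of 4961 and 4472, and of 959 and 698. All 3 were lower with let-7i, by log2 ratios of -0.17, -0.15 and -0.46, the brighter 2 within 1.12 times the probe SD. The span of 0.31 compares with a median of 0.37 over 1608 genes with exactly 3 measured probe sets.

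TIMP3 differs from the other TIMPs in that it is held in the extracellular matrix and also inhibits ADAM17 and aggrecanases. Its 4 probe sets, from bright to dim, had signals of 2987 and 586, of 3048 and 524, of 1901 and 236, and of 889 and 112. The let-7i array was the lower one in each. The level was 5.11-fold lower in the brightest (by mean log2 signal), 5.83-fold in the next and 8.06-fold in the third. The dimmest was 7.98-fold lower, and after raising the floor to the 65th percentile it gave a bound of -2.07 on the log2 scale. Among 1081 genes with at least 4 measured probe sets, TIMP3 was the 1 gene with all of them at least 2-fold lower. Its log2 ratios span 0.66, more than in 73.2% of the 639 genes with exactly 4 measured probe sets (median span 0.47). All 4 have IDs ending in _s_at, which marks probes shared between transcripts, so TIMP3 has no value when such probe sets are left out. The gene next to it in the order was IGFBP3, which carries insulin-like growth factors, 4.51-fold lower (7141 and 1588).

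**Figure D3:**
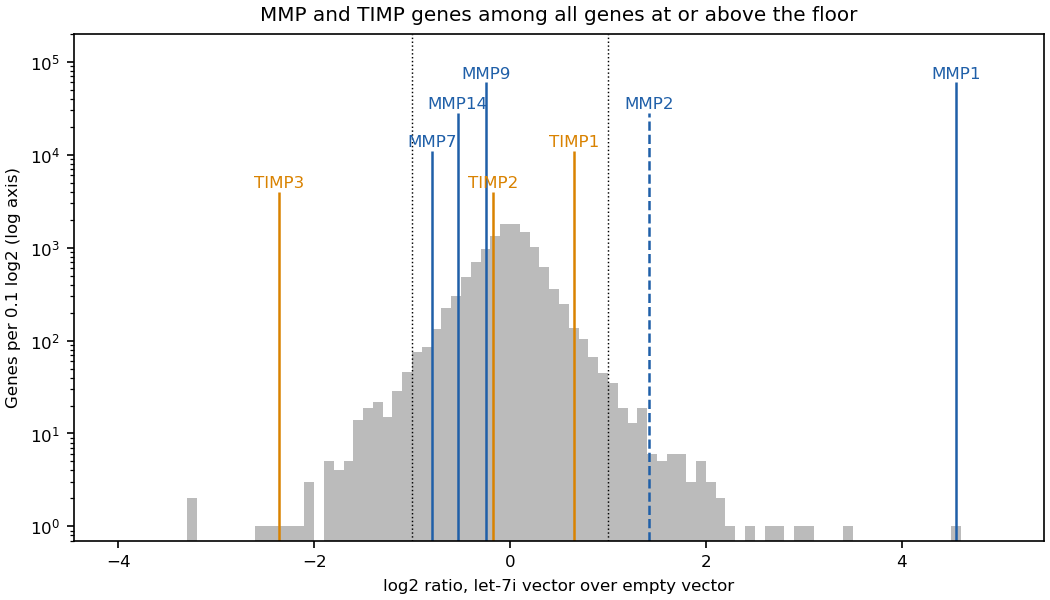
Number of genes (y axis, log axis) per 0.1 of log2 ratio (x axis, let-7i over empty vector) for the 12284 genes that reached the floor on 1 or both arrays, with the MMPs (blue) and TIMPs (orange) marked at their brightest probe set; the dashed line of MMP2 is a lower bound and dotted lines mark 2-fold. MMP1 at 4.56 lies at the right end, TIMP3 at -2.35 lies far to the left, and MMP9 and TIMP2 lie within the bulk of genes.

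As a group, the proteases were not shifted one way. Among the 8 protease probe sets that reached the floor 3 were higher and 5 lower. Their median log2 ratio was -0.26, with 2 past 2-fold upward and 0 downward. Of the 8 inhibitor probe sets 1 was higher and 7 lower, with a median of -1.41, and the 4 past 2-fold downward all belong to TIMP3. Over all 23919 probe sets with 1 gene symbol that reached the floor, the median was -0.02 and 2.37% were past 2-fold, 0.982% upward and 1.39% downward. With 1 value per gene the medians lay close to each other, -0.24 for 5 proteases and -0.17 for 3 inhibitors, against -0.01 over all genes. The members were far apart one by one. The log2 ratio of MMP1 was 6.91 above that of TIMP3, and that of TIMP1 was 3.01 above that of TIMP3. The log2 ratio of MMP14 minus that of TIMP2, the inhibitor it works with, was -0.36. These differences use the brightest probe set of each gene, and the 4 MMP14 probe sets span 0.92, more than that last difference. Without probe sets that can match several transcripts, the protease median over genes was 0.46 and the inhibitor median 0.26, since TIMP3 and MMP9 then have no value.

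The RefSeq promoter table matched 5 of the 10 members, MMP7, MMP10, MMP14, TIMP1 and TIMP3. The 200 bases before the start site are printed for MMP7, TIMP1 and TIMP3, an MMP that was lower and 2 inhibitors on opposite sides, to show how the kinds of promoter differ. Motifs were searched on both strands, the AP-1 site TGAGTCA, the TATA box TATAAA and the GC box GGGCGG, and matches, none of which overlap, are in capitals. All are 5′ to 3′ on the gene's strand, GRCh38.p14. MMP7 is at chr11:102530748-102530947 (minus strand), TIMP1 at chrX:47582236-47582435 (plus strand) and TIMP3 at chr22:32801505-32801704 (plus strand).
MMP7: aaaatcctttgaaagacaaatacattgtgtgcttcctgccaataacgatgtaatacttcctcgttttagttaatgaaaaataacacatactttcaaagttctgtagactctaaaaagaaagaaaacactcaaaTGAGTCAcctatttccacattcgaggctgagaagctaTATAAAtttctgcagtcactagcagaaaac
TIMP1: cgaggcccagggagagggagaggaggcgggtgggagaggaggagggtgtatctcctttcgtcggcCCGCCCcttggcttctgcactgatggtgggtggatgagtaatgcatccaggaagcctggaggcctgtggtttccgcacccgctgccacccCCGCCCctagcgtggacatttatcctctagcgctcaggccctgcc
TIMP3: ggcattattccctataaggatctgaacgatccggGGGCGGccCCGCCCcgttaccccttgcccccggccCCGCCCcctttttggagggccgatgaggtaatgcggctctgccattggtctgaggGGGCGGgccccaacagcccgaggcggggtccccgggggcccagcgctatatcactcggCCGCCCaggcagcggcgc
The MMP7 stretch holds an AP-1 match that starts at position -67 and a TATA box at -30, counted from the start site. Among all 35116 promoters in the table, 3.54% hold that AP-1 motif in this window, 8.59% the TATA box and 40.1% the GC box. MMP10 also holds a TATA box, at -31, with no AP-1 or GC box match. TIMP3 holds 5 GC boxes and TIMP1 2, MMP14 holds 1, and none of these 3 holds an AP-1 or TATA match by these letters. The share of G and C was 33.5% in MMP7 and 70.5% in TIMP3, against a median of 59.0% over all promoters. A match is a description of the letters, sites that differ from these letters were not searched for, and no binding was measured.

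Other MMPs were mostly not measurable. Of 16 further MMP genes 15 had a probe set of their own. Of these, 5 reached the floor on at least 1 array, 2 higher and 3 lower, 0 past 2-fold, with a median of -0.24. None of these 5 had a value without probe sets shared between transcripts. MMP15, a membrane-type MMP, was 1.83-fold lower (299 and 164), a log2 ratio of -0.87, and MMP17, which is held by a lipid anchor, 1.79-fold higher (109 and 196). MMP11, a stromelysin first known from tumour stroma, had a log2 ratio of -0.48 and MMP25, a leukocyte MMP, of -0.24, both at dim signals. Of 4 other inhibitors 3 reached the floor. TIMP4 was 1.30-fold lower (482 and 371). RECK, a membrane-anchored MMP inhibitor, had a log2 ratio of -0.13 in its brightest probe set and up to 0.42 in the other measured ones. A2M, a plasma protease trap, had a bound of 0.17 (57.5 and 99.1).

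**Figure D4:**
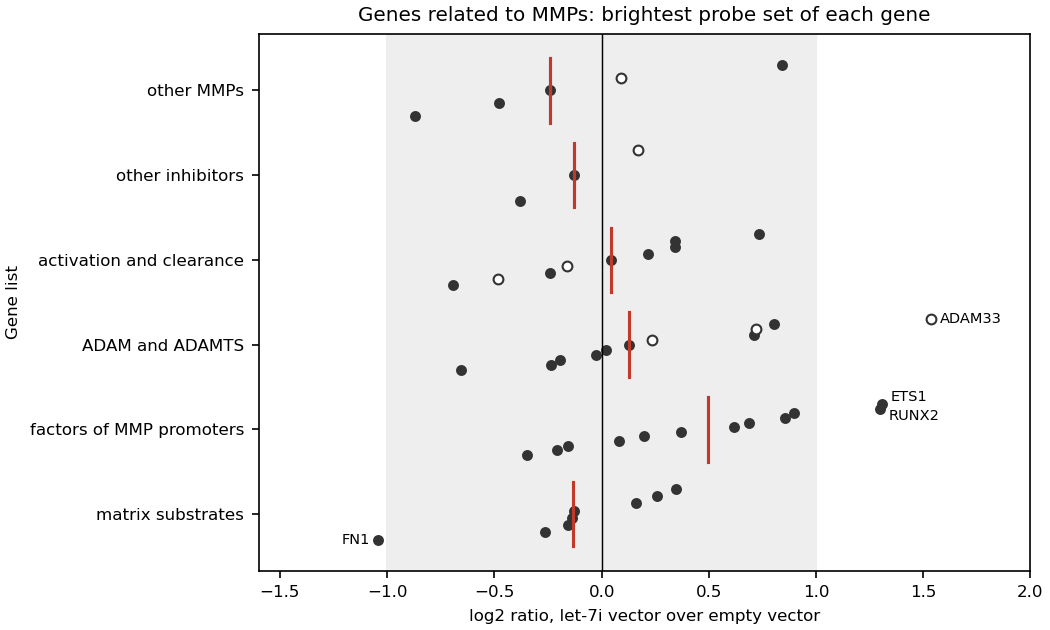
Log2 ratio (x axis, let-7i over empty vector) of the brightest probe set of each gene in 6 lists related to MMPs; filled points were measured on both arrays, open points are bounds, red lines are list medians and the grey band is less than 2-fold. The list of factors that act on MMP promoters has its median at 0.50, and the genes named are those past 2-fold.

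Proteins that activate MMPs or clear them differed little. Of 10 listed, 9 reached the floor, 5 higher and 4 lower, 0 past 2-fold, with a median of 0.04. LCN2, lipocalin 2, which binds MMP9, was 1.66-fold higher (5051 and 8423). PCSK5, a proprotein convertase, was 1.62-fold lower, with log2 ratios between -0.69 and -0.59 in 3 probe sets. PCSK6, a related convertase, had a bound of -0.49, and CD44, a surface receptor that docks MMPs, had a log2 ratio of 0.34 in its brightest probe set, with 12 probe sets between -0.20 and 0.35.

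The related ADAM and ADAMTS proteases include the targets of TIMP3. Of 16 listed, 11 reached the floor, 7 higher and 4 lower. Their median was 0.13, and 1 was past 2-fold upward. The higher ones include bounds for ADAM19, ADAM33 and ADAMTS9. Among the 8 genes measured on both arrays the median was -0.002. ADAM33 was at least 2.90-fold higher (28.3 and 256). That call ended when the floor was raised to the 65th percentile (a log2 ratio of 0.15). The probe set behind it has an ID ending in _x_at, and the other ADAM33 probe set was below the floor. ADAM33 therefore had no value without probe sets shared between transcripts. ADAMTS15, a proteoglycan-cleaving protease, was 1.75-fold higher. ADAM19 had a bound of 0.72 in its brightest probe set and a log2 ratio of -0.21 in the other, and the 3 probe sets of ADAMTS6 lay between -0.25 and 0.98. ADAM17, the sheddase that TIMP3 blocks, gave 883 and 899, a log2 ratio of 0.02.

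Transcription factors that act on MMP promoters were mostly higher. Of 14 listed, 12 reached the floor, 9 higher and 3 lower, and 2 were past 2-fold upward. Their median was 0.50 with the brightest probe set of each gene and 0.26 when a gene's probe sets were averaged. Over all genes, 5984 of the 12284 were higher and 1.06% were past 2-fold upward. In its brightest probe set ETS1 was 2.48-fold higher (1304 and 3236). Its 3 probe sets lay between 0.41 and 1.31 on the log2 scale, with a value of 0.96 when a gene's probe sets were averaged, which is under 2-fold. RUNX2, a runt-domain factor of bone that acts on the MMP13 promoter, was 2.46-fold higher (830 and 2046) in the 1 of its 6 probe sets that reached the floor. FOSL1, an AP-1 subunit, had signals of 3953 and 7372, a 1.86-fold higher level, and ETV5, an ETS factor, was 1.81-fold higher, with 4 measured probe sets between 0.32 and 1.25. The AP-1 subunits FOS and FOSB were below the floor on both arrays.

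Matrix substrates of MMPs did not follow one direction. Of 14 listed, 12 had a probe set of their own and 8 reached the floor, 3 higher and 5 lower, with a median of -0.13 and 1 at least 2-fold lower. That gene was FN1, fibronectin, 2.06-fold lower (13894 and 6767), with 5 probe sets between -1.36 and -0.84. Like TIMP3, it had no value without probe sets shared between transcripts. COL1A1, a chain of the fibrillar collagen that MMP1 cuts, had a log2 ratio of 0.26 in its brightest probe set and 0.08 in the other measured one. COL4A1, a basement membrane collagen, had a log2 ratio of 0.35 in its brightest probe set and -0.10 in the other. COL7A1, the collagen of anchoring fibrils, had -0.26 in its brightest and -0.02 in the other.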

How the data were processed

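RNA of 1 let-7i and 1 empty vector culture was labelled with biotin as cRNA for Affymetrix arrays, per the labels' protocols. MAS5 made the deposited signal intensities, per the submitters' processing notes, and the sources used here do not give its version. The deposited intensities are linear, with a mean of 500.1 on both arrays after trimming 2% at each end, and the table used here holds no detection calls. The precision is limited by the number of arrays. Symbols were assigned through the platform annotation, and all 20 member probe sets had the same symbol in RefSeq by Entrez ID. Probe sets with several symbols (1801) or not listed (11777) were left out.

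Signals below the floor (the 50th percentile of each array) were set to it, which makes a ratio a lower bound, and no ratio was given below it on both arrays. The centring shift was 0.0036 (log2). For each gene the probe set brightest by mean log2 signal was used. Values were called by size, at 2-fold, with no test. The members and lists were chosen with earlier results of these data known. Named genes are all members, the genes of the MMP cluster and the neighbours of MMP1 and TIMP3 in the order. The up to 4 genes of each related list with the largest absolute log2 ratio were also named. ADAM17, FOS, FOSB, ALPP and the cell type markers were named besides, after their values were seen. The procedure was tested on simulated data, with differences planted in genes measured on both arrays, the dimmest of them left out. That simulation did not cover planted differences in genes with a bound or variation between cultures. The tools were pandas 2.3.3 and NumPy 2.4.6 in Python 3.11.15, with statsmodels 0.14.6 for lowess and Matplotlib 3.10.9 for plots. Alternatives were quantile normalization, lowess centring (fraction 0.3, 3 iterations) or none, a lower and a higher floor (25th and 65th percentile), thresholds of 1.5-fold and 3-fold, averaging the probe sets of each gene, leaving out probe sets with IDs ending in _s_at or _x_at and, chosen after seeing the data, only values measured on both arrays.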

Additional observations from a re-analysis of the deposited data

How the results depend on the processing

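The log2 ratios of the 16 member probe sets at or above the floor kept their sign in all 77 values obtained without centring, with lowess centring, with quantile normalization and with floors at the 25th and 65th percentile. With the 65th percentile floor 1 protease probe set and 1 protease gene were at least 2-fold higher, as also with a threshold of 3-fold and among values measured on both arrays. At that floor MMP2 had a bound of 0.03 and the median of the protease probe sets was 0.034, since the MMP9 probe set and 2 lower MMP14 probe sets then had no value. Without probe sets shared between transcripts, which drops TIMP3, 0 inhibitor probe sets and 0 inhibitor genes were at least 2-fold lower, the protease medians were 0.46 for probe sets and 0.46 for genes, and the inhibitor medians were -0.14 and 0.26. A threshold of 1.5-fold gave 2 lower protease probe sets and 1 lower protease gene, and 1 higher inhibitor probe set and 1 higher inhibitor gene. In the related lists it gave 12 higher and 4 lower genes and a threshold of 3-fold gave 0 and 0. There a floor at the 25th percentile gave 5 lower genes, and leaving out shared probe sets gave 0 lower genes, since FN1 then had no value. ETV5 passed 2-fold without shared probe sets (1.27), and ADAM33 then had no value. Lowess centring moved the share of higher among all genes past 2-fold from 43.5% to 51.5% and quantile normalization to 51.3%. No paired analysis was possible because each group has 1 array. Dim signals limit MMP2, MMP10 and MMP13 most, and nothing here measures variation between cultures.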
